A study of Mus musculus with 2 samples.

Results

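The PRAME family genes of the early mouse embryo were examined in polyA RNA of embryonic stem cells of the E14 line, 129/Ola background, blastocyst-derived and labelled as double knockouts of AGO1 and AGO2, the Argonaute proteins that carry microRNAs. The series held 2 libraries of this 1 genotype, replicate 1 and replicate 2, and unmodified cells were not analysed here. What the knockout does to these genes is therefore not measured. Cells were cultured in serum with LIF on gelatine, per the labels. Separate cultures or clones are not named for the 2 replicates, and the spread between them may be technical. Among 47643 gene IDs counted, 53 were PRAME family genes by symbol or RefSeq name. The 9 members were Gm13119, Pramef25, Gm13128, BC080695, Pramef17, Gm13078 and Pramef6 of a cluster on chromosome 4, and Pramel6 and Pramel7 of chromosome 2. They were chosen by name because the cluster had been seen to be lower in replicate 2. The difference between the libraries is therefore given as a description with no test, and the count of members that show it supports nothing.

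PRAME, first found as an antigen of melanoma, gave its name to a family of proteins built of leucine-rich repeats. Human PRAME represses signalling through retinoic acid receptors and serves as a substrate receptor of ubiquitin ligases built on the cullin CUL2. The family has grown into many copies in the mouse, and most copies are transcribed in germ cells or in the preimplantation embryo. Several transcripts of the chromosome 4 cluster are known from the cleavage-stage embryo and from 2-cell-like cells, a rare state in embryonic stem cell cultures. Pramel6 and Pramel7 are genes of the morula and inner cell mass. Pramel7 acts downstream of LIF and STAT3 and directs the DNA methylation factor UHRF1 to degradation.

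The libraries held 34798975 gene counts in replicate 1 and 29789560 in replicate 2. Ago1 had 2463 and 4205 counts (70.8 and 141 CPM, the count scaled to the library total) and Ago2 had 4304 and 3839 (124 and 129 CPM). Reads were thus counted for both targeted genes, which checks no genotype, since a count over all exons does not show an edited exon. The embryonic stem cell markers were present, with a summed level of 7807 and 7468 CPM over 10 genes including Pou5f1, Nanog and Sox2. All 10 had ratios between -0.18 and 0.12 on the log2 scale, replicate 2 over replicate 1.

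All 9 members had counts in both libraries, from 34 counts over both libraries for Pramel7 to 879 for Gm13119. Levels are given in TPM, counts scaled to the merged exon length of a gene and to the same total in each library, which allows genes to be compared. The members fell into groups of near-identical coding sequence, and they are described in that order. The groups were set after the values were seen, at 90% identity of coding bases in a global alignment.

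The first group held Gm13119, Pramef25 and BC080695, which were 94.3 to 96.7% identical to each other. Gm13119 (ENSMUSG00000070619, Pramel31 in RefSeq; GRCm38 chr4:144357942-144364419, plus strand, 4 exons) was the most abundant member, with 631 and 248 counts, or 23.9 TPM in replicate 1 and 10.9 TPM in replicate 2. Pramef25 (ENSMUSG00000078511, Pramel16; chr4:143948580-143951016, minus strand, 3 exons) had 431 and 182 counts, or 20.3 and 9.98 TPM. BC080695 (ENSMUSG00000070618, Pramel20; chr4:143551700-143573798, plus strand, 5 exons) had 190 and 72 counts, or 7.05 and 3.11 TPM. Each of the 3 was higher in replicate 1. Summed over the group, which is insensitive to how reads were split among its members, the counts were 1252 and 502, with a log2 ratio of -1.10 (95% interval -1.25 to -0.95). Intervals here and below are exact and cover counting error only. Of their 50-base stretches, 38.6% for Gm13119, 63.5% for Pramef25 and 55.3% for BC080695 recur in transcripts of other genes. Genes of the family by name hold 34.8, 50.9 and 31.6% of the stretches. Gm13040, which is not of the family by name, was the single gene with the largest share, at 21.5, 34.1 and 49.6%. The 120 bases before the RefSeq start are shown for Gm13119 (GRCm38.p6 chr4:144357844-144357963, plus strand) and BC080695 (chr4:143567347-143567466, plus strand). Theirs were the only windows among the members that held the exact letters TATAAA, in capitals, 1 spelling of the TATA box. Other spellings were not searched, and the bases before the starts of Pramef6 and Gm13078 hold tatataag.
Gm13119: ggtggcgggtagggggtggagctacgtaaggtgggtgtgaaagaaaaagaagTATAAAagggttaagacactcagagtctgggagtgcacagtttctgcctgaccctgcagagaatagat
BC080695: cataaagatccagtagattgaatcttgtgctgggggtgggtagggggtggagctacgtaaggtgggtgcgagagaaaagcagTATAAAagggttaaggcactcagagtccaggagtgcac
The 300-base windows around the starts of these 2 genes were 75.6% identical. The RefSeq start of BC080695 lies 15767 bases inside the GENCODE gene, so the window belongs to the shorter RefSeq model.

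The second group was the pair Pramef17 and Gm13128, whose coding sequences of 1428 bases were 99.3% identical and differed at 10 bases. Gm13128 (ENSMUSG00000078508, Pramel30; chr4:144330249-144333465, plus strand, 3 exons) had 238 and 87 counts, or 10.8 and 4.60 TPM. Pramef17 (ENSMUSG00000078509, Pramel14; chr4:143991119-143994369, minus strand, 3 exons) had 110 and 36 counts, or 4.98 and 1.90 TPM. Both were higher in replicate 1, and Gm13128 was the higher of the pair in both libraries. Of their 50-base stretches 73.5% in Pramef17 and 73.8% in Gm13128 occur in the other gene, so the division of reads between them is uncertain. Their sum does not depend on it, and stood at 348 and 123 counts with a log2 ratio of -1.27 (95% interval -1.59 to -0.98). The first 120 coding bases show how little parts the pair, and how Pramel7 of chromosome 2 compares. Capitals in Pramef17 mark bases that do not match Gm13128, and in the others bases that do not match Pramef17.
Pramef17: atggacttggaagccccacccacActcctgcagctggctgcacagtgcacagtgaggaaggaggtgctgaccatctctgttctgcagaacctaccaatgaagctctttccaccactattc
Gm13128: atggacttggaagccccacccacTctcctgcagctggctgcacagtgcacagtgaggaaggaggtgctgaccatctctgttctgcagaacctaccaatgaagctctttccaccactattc
Pramel7: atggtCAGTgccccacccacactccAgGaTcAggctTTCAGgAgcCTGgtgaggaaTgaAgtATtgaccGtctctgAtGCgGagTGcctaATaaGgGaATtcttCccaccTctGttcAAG
Over the whole coding sequence Pramel7 was 79.9% identical to Pramef17 and 80.2% to Gm13128, although it lies on another chromosome, and 55.8% identical to its neighbour Pramel6. The windows around the start sites repeated this order: 97.3% between Pramef17 and Gm13128, 75.2% between Pramef17 and Pramel7, and 73.7% between Gm13128 and Pramel7. Over all 36 pairs of members the median identity of these windows was 46.1%. The 120 bases before the start (Pramef17 chr4:143994370-143994489, minus strand; Gm13128 chr4:144330129-144330248, plus strand; Pramel7 chr2:87492419-87492538, minus strand) are shown with capitals set in the same way as in the coding sequences. A stretch before the start reads the same in all 3 genes apart from single bases.
Pramef17: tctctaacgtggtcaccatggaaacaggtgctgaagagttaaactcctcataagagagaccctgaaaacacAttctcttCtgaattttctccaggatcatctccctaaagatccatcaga
Gm13128: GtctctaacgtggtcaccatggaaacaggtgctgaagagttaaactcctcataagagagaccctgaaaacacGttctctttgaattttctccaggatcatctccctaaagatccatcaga
Pramel7: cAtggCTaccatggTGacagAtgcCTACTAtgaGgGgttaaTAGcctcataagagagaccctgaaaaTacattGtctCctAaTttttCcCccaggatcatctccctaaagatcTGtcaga

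The third group was the pair Pramef6 and Gm13078, 95.7% identical in coding sequence. Gm13078 (ENSMUSG00000046435, Pramel24; chr4:143719455-143729158, plus strand, 4 exons) had 99 and 35 counts, or 3.73 and 1.53 TPM. Pramef6 (ENSMUSG00000078512, Pramel11; chr4:143894237-143900380, minus strand, 6 exons) had 82 and 31 counts, or 3.12 and 1.37 TPM. Both were again higher in replicate 1, and their counting intervals in CPM overlapped within each library. Their summed counts of 181 and 66 gave a log2 ratio of -1.23 (95% interval -1.66 to -0.82). Pramef6 also shares 29.6% of its 50-base stretches with Gm13083, a gene of the cluster outside the 9. The 120 bases before the starts of Pramef6 (chr4:143900381-143900500, minus strand) and Gm13078 (chr4:143719331-143719450, plus strand) are shown because the pair stayed alike before the start, with bases that do not match the other gene in capitals. The windows around these starts were 84.4% identical.
Pramef6: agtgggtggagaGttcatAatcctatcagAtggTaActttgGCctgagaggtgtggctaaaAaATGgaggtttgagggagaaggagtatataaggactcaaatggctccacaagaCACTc
Gm13078: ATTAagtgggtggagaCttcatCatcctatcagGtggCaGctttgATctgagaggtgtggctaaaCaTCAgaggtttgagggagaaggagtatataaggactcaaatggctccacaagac

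Pramel6 and Pramel7, the genes of the inner cell mass, were the lowest of the 9 by CPM and by TPM over merged exon length. With median transcript length in its place Pramel6 had 0.999 TPM, above Pramef6 (0.969) and Gm13078 (0.940). Pramel6 (ENSMUSG00000025838; chr2:87506565-87510872, plus strand, 6 exons) had 31 and 13 counts, or 1.18 and 0.576 TPM. Its 95% Poisson intervals of 0.605 to 1.26 CPM in replicate 1 and 0.232 to 0.746 CPM in replicate 2 overlapped. Pramel7 (ENSMUSG00000025839; chr2:87489087-87497093, minus strand, 4 exons) had 23 and 11 counts, or 0.856 and 0.476 TPM, and its intervals of 0.419 to 0.992 and 0.184 to 0.661 CPM overlapped too. Pramel6 shares none of its 50-base stretches with other genes (0%) and Pramel7 1.43%, so few of their reads could be lost to near-identical genes of the annotation. The log2 ratios were -1.0 (95% interval -2.09 to -0.06) for Pramel6 and -0.81 (-2.03 to 0.25) for Pramel7. Both intervals are wide, and that of Pramel7 crossed 0.

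In order of mean TPM the members ran Gm13119 (17.4 ± 9.19, SD, n = 2), Pramef25 (15.2 ± 7.32), Gm13128 (7.72 ± 4.40), BC080695 (5.08 ± 2.79), Pramef17 (3.44 ± 2.18), Gm13078 (2.63 ± 1.55), Pramef6 (2.25 ± 1.24), Pramel6 (0.879 ± 0.428) and Pramel7 (0.666 ± 0.269). The order was the same in each library. The ranges of neighbours overlapped at every step except from Pramef6 to Pramel6, since the difference between the libraries was as large as the steps between genes. Among protein-coding genes Gm13119 stood at percentile 71.1 of mean TPM, Pramef17 at 51.0 and Pramel7 at 39.9. These levels depend on the length used: with median transcript length in place of merged exon length the mean was 6.22 TPM for Gm13119, 1.23 for Pramef17 and 0.766 for Pramel7.

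**Figure D1:**
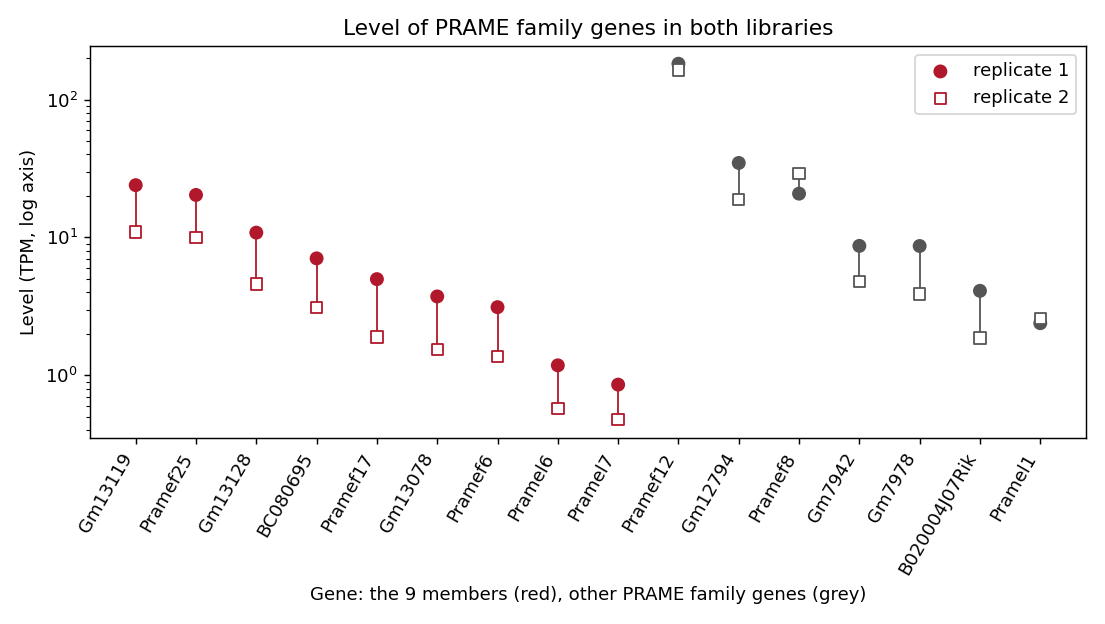
Level in TPM (vertical log axis) of the 9 members (red) and of other PRAME family genes with at least 100 counts (grey), with replicate 1 as filled circles and replicate 2 as open squares, joined by a line. Each member has its circle above its square, from 23.9 against 10.9 TPM in Gm13119 to 0.856 against 0.476 TPM in Pramel7, while Pramef8 and Pramel1 have the reverse order.

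Replicate 2 lay below replicate 1 in each of the 9, by 1.75-fold in Pramel7 to 2.60-fold in Pramef17. The log2 ratios, replicate 2 over replicate 1 with TMM scaling, had a median of -1.17 and ran from -1.38 to -0.81. Of the 9 members 9 were at least 1.5-fold lower. Of 19078 genes with at least 10 counts 9.22% were, and since the members were chosen for this difference nothing is read from the comparison. Of 13553 genes with at least 100 counts, to which 7 members belong, 3.55% were lower and 1.14% higher by 1.5-fold. With a bar of 2-fold, 8 members were lower, against 3.83% of all genes. Among these Pramel6 lay at the bar, at -1.0003. It fell short of the bar under library totals without TMM scaling (-0.998) and with 1 count added in place of 0.5 (-0.971). The median ratio over all genes was -0.01. The interval lay wholly past 1.5-fold in 6 members, below 0 in 8, and crossed 0 in Pramel7. In bulk RNA, fewer cells that express these genes and less RNA per cell cannot be told apart.

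The ratios of the members were next set against that of their sum. Summed over the 9 the counts were 1835 and 715, or 52.7 and 24.0 CPM, with a log2 ratio of -1.14 (95% interval -1.26 to -1.01). The interval of each of the 9 members held this value. The sum is made of these members and some intervals are wide, so overlap does not show that the ratios are alike. The intervals of the sequence groups overlapped, and those of the 7 genes of chromosome 4 (-1.14, interval -1.27 to -1.02) and the 2 genes of chromosome 2 (-0.93, interval -1.71 to -0.23) did too. The members had a median GC content of 45.6%, against 49.8% over all genes with at least 10 counts, and across genes the ratio had a Spearman rho of -0.19 with GC content (18978 genes, which share the same 2 libraries). After removal of a lowess trend on GC content and exon length the ratios of the members ran from -1.43 to -0.87.

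**Figure D2:**
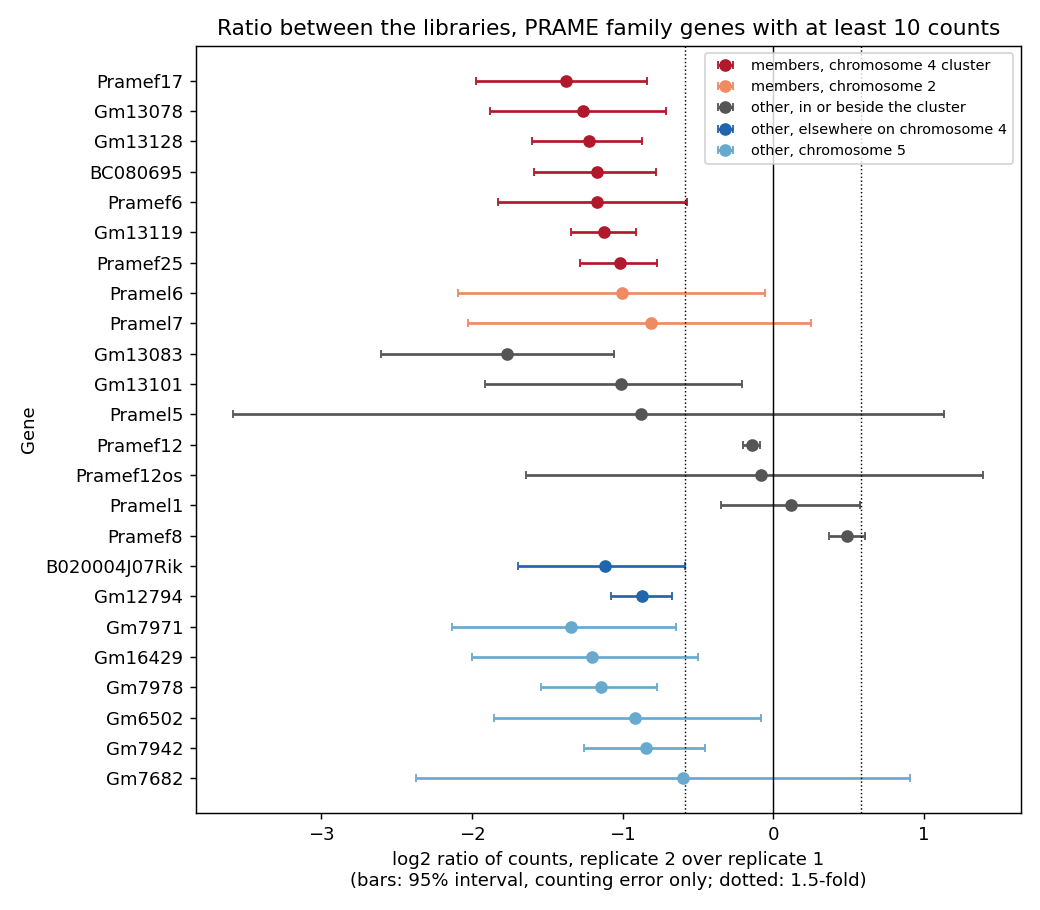
Log2 ratio of replicate 2 over replicate 1 (horizontal axis) for the 24 PRAME family genes with at least 10 counts, coloured by place, with 95% counting intervals as bars and 1.5-fold as dotted lines. The 9 members lie between -1.38 and -0.81, as do most other family genes, while Pramef12, Pramef12os, Pramel1 and Pramef8 lie between -0.14 and 0.49.

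Other genes of the family show how far the difference extended. By symbol or RefSeq name the annotation held 44 further PRAME and Oog genes among the counted IDs, of which 20 had no count in either library and 15 had at least 10 counts. At least 1.5-fold lower in replicate 2 were 11 of the 15 and none (0) was higher, against 9.22% lower and 5.52% higher of all genes with at least 10 counts. Their median log2 ratio was -0.88. The cluster entered the choice of the members, and these genes share sequence with each other, so their count is a description too. On chromosome 5, 6 of 6 such genes were lower, with summed counts of 549 and 228 and a log2 ratio of -1.04 (95% interval -1.27 to -0.82) over all 18 family genes there. Gm7978 (207 and 80 counts) and Gm7942 (164 and 78 counts) were the most abundant of them. Elsewhere on chromosome 4, Gm12794 had 634 and 297 counts with a log2 ratio of -0.87, and B020004J07Rik had 102 and 40 counts with one of -1.12. Counts of single genes on chromosome 5 are uncertain, since Gm7978, Gm7971 and Gm16429 share 100% of their 50-base stretches with other genes.

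Of the family genes beside the cluster those with at least 100 counts, Pramef12, Pramef8 and Pramel1, were less than 1.5-fold apart between the libraries. They were singled out after their values were seen. Pramef20, directly after the last member, had 6 and 3 counts (log2 ratio -0.67, interval -3.41 to 1.45), Pramef12os 10 and 8, and Oog4 1 and 0. Pramef12, known for a part in the upkeep of spermatogonial stem cells, was the most abundant gene of the family, with 5889 and 4571 counts, or 182 and 164 TPM, and a log2 ratio of -0.14 (95% interval -0.20 to -0.09). Pramef8 had 1092 and 1315 counts, or 20.8 and 29.1 TPM, and was higher in replicate 2, at 0.49 (0.37 to 0.61). Pramel1 had 84 and 78 counts, with a ratio of 0.12 (-0.35 to 0.58). Each of these genes shares 0% of its 50-base stretches with any other gene. Without them, the other 41 family genes had 1436 and 618 counts in sum and a log2 ratio of -0.99 (-1.13 to -0.86), against -0.02 (-0.07 to 0.03) for the 3 alone. The 9 members took 17.8% of all family counts in replicate 1 (95% interval by Clopper-Pearson, 17 to 18.5%) and 9.80% in the other library (9.13 to 10.5%), while Pramef12 took 57.0 and 62.6%.

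Position within the cluster was followed next. From BC080695 to Gm13119 the cluster spans 813 kb (chr4:143551700-144364419). Within it lay 35 counted genes, of which 13 had at least 10 counts, and 11 of these were at least 1.5-fold lower in replicate 2, against 9.22% of all genes. Of the 11, 7 are the members, chosen for this difference, so nothing is read from the count. The 11 were the 7 members, the family genes Gm13083 (77 and 19 counts, log2 ratio -1.77), Gm13101 (43 and 18 counts, -1.01) and Pramel5 (7 and 3 counts, -0.88), and the pseudogene Gm13106 (36 and 17 counts, -0.84). The pseudogenes Gm13108 (19 and 13 counts, -0.31) and Gm13123 (29 and 30 counts, 0.27) were not. In equal lengths to each side, 1 of 7 genes before the cluster was lower, Gm13043 with 13 and 7 counts, and 0 of 5 after it. Pramef8 and Pramel1 lie before the first member and Pramef12 beyond the last. Family genes without reads lay among those with reads. There were 9 of them, Gm13088, Gm13089, Gm13023, Gm13084, Gm13103, Pramel4, Oog3, Oog2 and C87977, each with no count in either library. A floor of 3 counts equals 0.0862 CPM in replicate 1 and 0.101 CPM in replicate 2, which is the highest level that a count of 0 allows by this limit. Of the 50-base stretches of Gm13089 only 0.0569% recur elsewhere, and of those of Pramel4 87.4%.

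**Figure D3:**
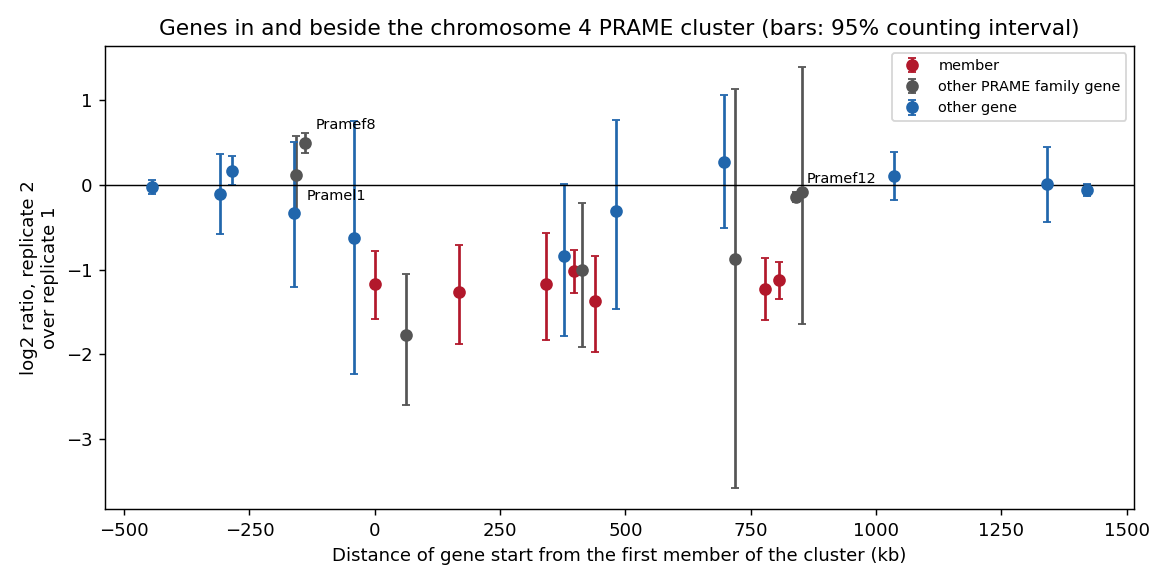
Log2 ratio of replicate 2 over replicate 1 (vertical axis) against distance of the gene start from the first member in kb, for genes with at least 10 counts in and beside the chromosome 4 cluster, with 95% counting intervals. The 7 members (red) lie between -1.38 and -1.02, while Pramef8 and Pramel1 before them and Pramef12 after them lie between -0.14 and 0.49.

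Identity of coding sequence was compared next. Coding sequences of the 9 members had a median identity of 61.4% over 36 pairs, from 55.8 to 99.3%, and each coded for 475 to 495 codons with the stop. Gm13101, also lower, was 96.4% identical to Gm13119, and Gm13083 91.9% to Pramef6. The 7 members of chromosome 4 were 53.1 to 74.1% identical to Pramef12, Pramef8 and Pramel1, with a median of 58.3%. Pramef8 was the nearest of these, at 74.1% to BC080695, a closer match than that of BC080695 to Pramef6 (61.6%).

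**Figure D4:**
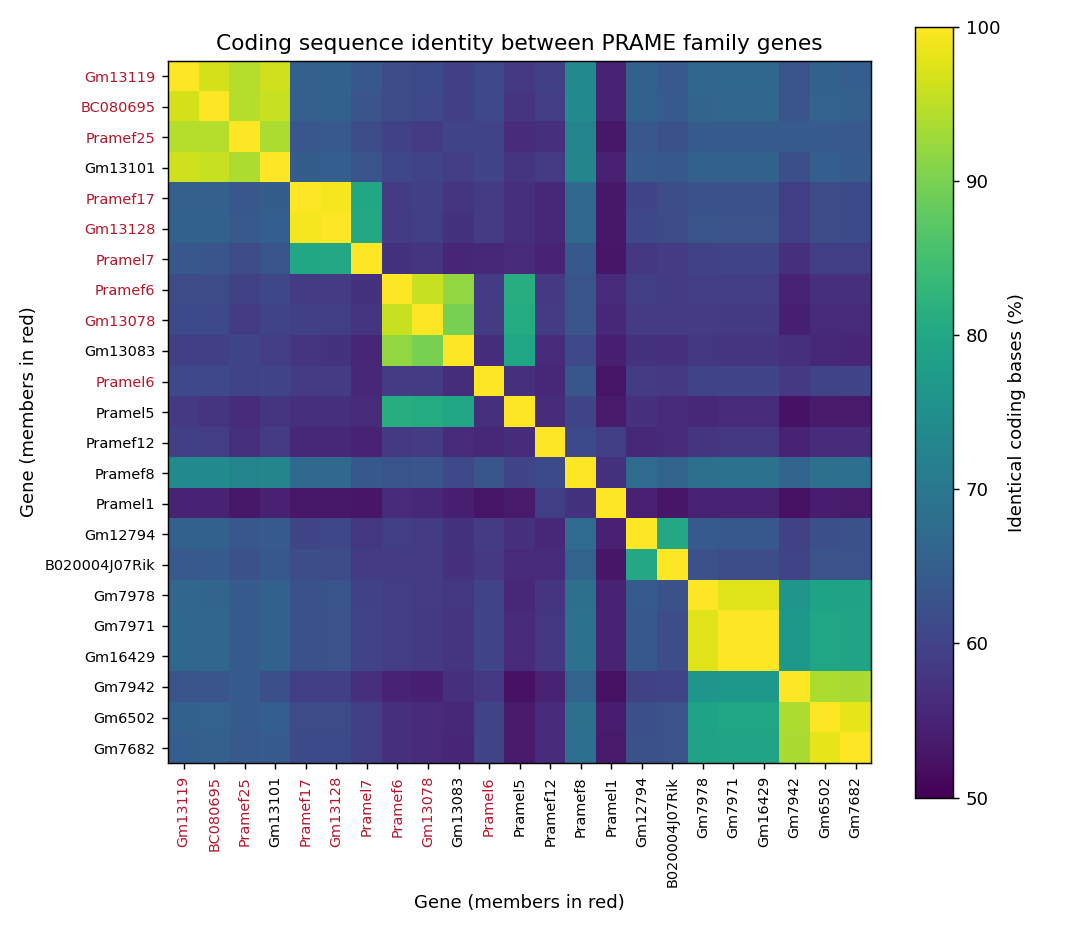
Share of identical coding bases (colour, 50 to 100%) between the 23 coding PRAME family genes with at least 10 counts, members in red. Bright blocks hold Gm13119, BC080695, Pramef25 and Gm13101, then Pramef17 and Gm13128 with Pramel7 at about 80%, then Pramef6, Gm13078 and Gm13083, and the near-identical genes of chromosome 5.

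Promoter windows from RefSeq (GRCm38.p6, 250 bases before to 50 after the start) were matched for all 9 members. They were poor in CpG, with 1 to 4 CpG dinucleotides and a GC content of 40.3 to 47.3%, where the median of 32851 windows was 7 CpG and 52.7% GC, and 38.0% of windows had no more than 4. Pramel1 had 20 CpG and Pramef12 had 7. Motifs were searched on both strands. TATAAA was found in 2 of 9 windows, starting 68 bases before the start of Gm13119 and 38 before that of BC080695, against 13.6% of all windows. This count leaves out other spellings of a TATA box, such as the tatataag before the starts of Pramef6 and Gm13078. CCAAT was found in Pramef6 and Pramel6 (2 of 9, against 37.4%). GGGCGG, the letters of a GC box, was found in 0 of 9, against 35.7%, and at 2 places in Pramel1. TTCNNNGAA, the letters of a STAT site, was in 0 of 9, also not in Pramel7 (8.30% of all windows), and TCAAGGTCA, those of an Esrrb site, in 0 of 9 (0.423%). No matches in the members overlapped. Such matches are letters in a window and not sites, and a missing match says only that the letters are not there. The GENCODE gene of Pramel7 begins 4675 bases before the RefSeq start used here.

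Genes of processes linked to PRAME proteins were read next, from lists of CUL2 ligase, DNA methylation, LIF and STAT3, and retinoic acid genes. A place in these lists does not make a gene a partner of a PRAME protein. In the CUL2 ligase list 12 of 12 genes had at least 10 counts, 0 were past 1.5-fold in either direction, and the median log2 ratio was 0.03. Elob (312 and 276 TPM) and Fem1b (139 and 142 TPM) were its most abundant members, and Cul2 itself stood at 110 and 117 TPM. In the DNA methylation list 0 of 7 genes were past the fold, with a median of 0.04. Uhrf1, the substrate of Pramel7, stood at 375 and 371 TPM with a log2 ratio of -0.01, and Dnmt1 at 182 and 173 TPM. In the LIF and STAT3 list 1 of 15 was higher, Gbx2 at 0.97 (242 and 406 counts), 0 were lower, and the median was 0.07. Stat3 stood at 29.0 and 30.3 TPM, Pim3 at 257 and 255 TPM and Tfcp2l1 at 195 and 205 TPM. Of the retinoic acid genes 2 of 12 were lower and 0 higher, against 9.22% and 5.52% of all genes, with a median of -0.01. Stra8, a retinoic acid target that opens meiosis, had 736 and 199 counts and a log2 ratio of -1.66 (95% interval -1.90 to -1.44), and Crabp1, a carrier of retinoic acid, had 253 and 139 counts and one of -0.64. The receptor genes Rarg (159 and 161 TPM) and Rara (28.6 and 27.9 TPM) had ratios of 0.02 and -0.03, and Ezh2, whose product takes part in repression by PRAME, stood at 72.5 and 77.4 TPM.

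Genes of 2-cell-like cells were lower in replicate 2 along with the members. Of the 25 found 24 had at least 10 counts, and 21 of these were at least 1.5-fold lower and 0 higher, against 9.22% of all genes. Their median log2 ratio was -1.0. The list was chosen with earlier results of these data known, and many of its genes belong to the Zscan4, Tdpoz and Usp17l families. Its count is therefore a description too. The summed level of the 25 genes was 642 CPM in replicate 1 and 325 CPM in replicate 2. Duxf3, the Dux gene whose product switches this state on, had 88 and 35 counts and a ratio of -1.10. Gm21761 (215 and 117 TPM) and Zscan4f (208 and 102 TPM) were the most abundant, and Tdpoz2 (-2.18, from 18 and 3 counts), Spz1 (-1.69) and Tdpoz3 (-1.56) had the lowest ratios. Whether the share of such cells differed between the 2 libraries was not tested.

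**Figure D5:**
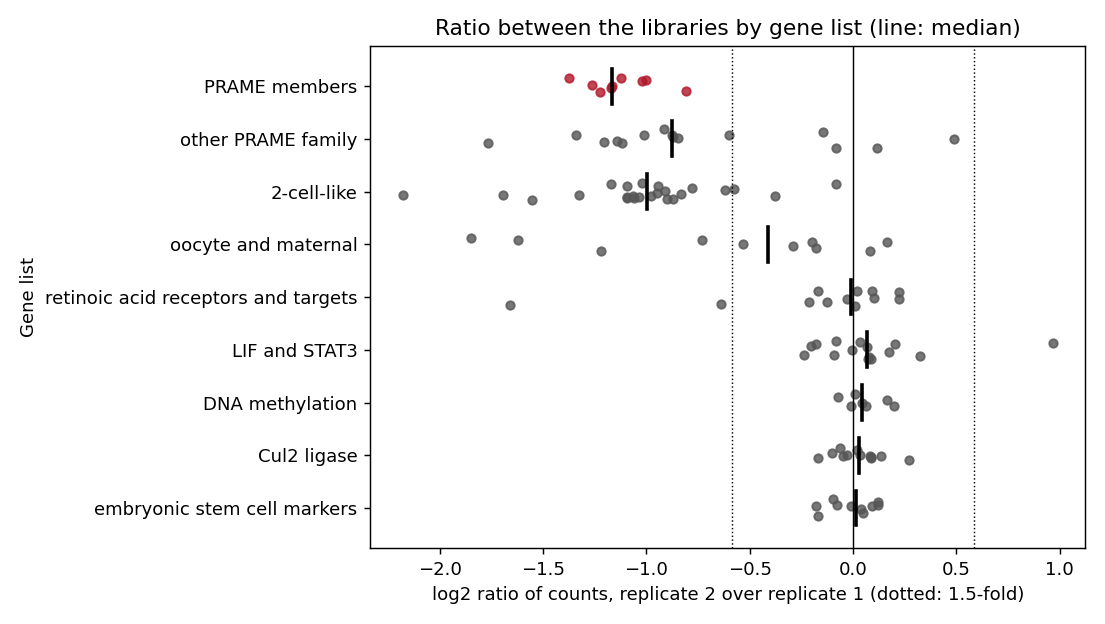
Log2 ratio of replicate 2 over replicate 1 (horizontal axis) for each gene with at least 10 counts of the lists named on the vertical axis, with the list median as a black line and 1.5-fold as dotted lines. The 9 members have a median of -1.17 and the 2-cell-like genes one of -1.0, while the embryonic stem cell markers, CUL2 ligase and DNA methylation genes lie near 0.

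Markers of other cell types were read in the same libraries. The 8 fibroblast markers, which feeder cells would bring, summed to 30.7 and 29.4 CPM, of which Thy1 gave the most (22.8 and 21.2 TPM), and Col3a1, Lum and Postn had no count. The 7 primitive endoderm markers summed to 7.93 and 5.91 CPM, the 7 trophoblast markers to 56.6 and 65.8 CPM, with Tfap2c leading (30.2 and 38.9 TPM), and the 6 primed epiblast markers to 51.4 and 42.5 CPM, with Otx2 leading (29.4 and 23.4 TPM) and Cer1 at no count. Thy1, Tfap2c and Otx2 thus had a higher mean TPM than any of the 9 members. Tfap2c alone gave 40.2 and 52.0 CPM of the trophoblast sum. Otx2 gave 44.9 and 35.9 CPM of the primed epiblast sum. At least 1.5-fold lower in replicate 2 were 2 of 7 primitive endoderm and 2 of 7 trophoblast markers, and 0 of 3 fibroblast and 0 of 4 primed epiblast markers with at least 10 counts, against 9.22% of all genes. Those lower were Gata6 (8 and 3 counts), Dab2 (18 and 7), Gata3 (13 and 4) and Elf5 (20 and 11), and the interval of each of the 4 ratios crossed 0. Short of 1.5-fold, Gata4 (-0.42, interval -0.75 to -0.09) and Otx2 (-0.33, -0.44 to -0.21) had intervals below 0. Those of Tfap2c (0.37, 0.26 to 0.47) and Col1a1 (0.58, 0.12 to 1.05) lay above 0. The part of cells with these markers in the difference of the members was not tested.

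With 2 libraries the pattern of a gene is 1 ratio, and likeness was taken as the distance from the ratio of the summed members. Of 13539 genes outside the family with at least 100 counts, 0.487% had a ratio as low as the members' sum or lower. Since the members were chosen for being lower in replicate 2, nothing is read from this share. The 5 nearest were Crxos (237 and 92 counts, log2 ratio -1.14), Rasl10a (101 and 39, -1.14), Zfp560 (155 and 60, -1.14), the chromosome 4 pseudogene Gm13230 (1368 and 534, -1.13) and Ddr2 (407 and 159, -1.13).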

How the data were processed

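PolyA RNA of 2 libraries of 1 genotype was sequenced. The authors deposited 1 table of unnormalized read counts per Ensembl gene for each library; STAR 2.4.2a and the mm10 (GRCm38) build are named in the submitters' processing notes, and libraries were made with a reverse-stranded TruSeq protocol, per the labels. How the authors counted (tool, strand, multi-mapped reads, annotation) is not given in the sources used here, and near-identical genes may lose or split reads. GENCODE M21 named 47224 of 47643 IDs; the other 419 stayed in the library totals.

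CPM and TPM were computed from the counts, TPM over merged exon length. Log2 ratios used TMM sizes (edgeR 4.0.16) and a pseudocount of 0.5. The ratio intervals are 95% exact conditional binomial intervals and those of CPM exact Poisson intervals. Called means at least 1.5-fold among genes with at least 10 counts, with no test, since there is 1 group. On simulated counts with sampling noise only (19078 genes) the intervals held the true ratio in 95.9% of genes. Coding identity came from global alignment of GENCODE transcripts (Biopython 1.88) in place of the planned protein identity; proteins were not used here.

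The members and lists were chosen with earlier results of these data known. Named genes were the members, other family genes with at least 100 counts, cluster genes with at least 10, the 2 most abundant and up to 3 most different genes of a list, and the 5 nearest in ratio; only a part of those so named is given, and genes added for their role are Cul2, Uhrf1, Dnmt1, Stat3, Rara, Rarg, Ezh2, Duxf3 and further family genes. Alternatives were library totals, size factors of DESeq2 1.42.0, other folds, filters on counts, pseudocounts and lengths, a lowess trend on GC content and length, each member or library left out, and 100-base stretches.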

Additional observations from a re-analysis of the deposited data

How the results depend on the processing

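The 9 ratios of the members and the ratio of their sum kept their direction and stayed past 1.5-fold under library totals, DESeq2 size factors, a pseudocount of 1 and removal of the GC and length trend, as far as each was run. The sum ran from -1.17 to -1.12 with each member left out. The count of other family genes lower in replicate 2 was 11 of 15, against 9.22% of all genes with at least 10 counts. It became 4 of the 7 with at least 100 counts, against 3.55% of all such genes, and 6 of 15 at 2-fold, against 3.83%. With no filter on low counts it was 17 of 44, where 20 of the 44 had no count. A430089I19Rik, Prame and Gm16427 were then higher, from 1 or 2 counts each. The share of all genes without a filter was not computed. Levels depend on the length used: with median transcript length mean TPM fell to 6.22 for Gm13119, 5.41 for Pramef25, 2.75 for Gm13128, 1.85 for BC080695, 1.23 for Pramef17, 0.940 for Gm13078 and 0.969 for Pramef6, and rose to 0.999 for Pramel6 and 0.766 for Pramel7. Pramel6 then stood above Pramef6 and Gm13078, and Pramef6 above Gm13078. Each TPM is scaled to a total over all genes, so the lengths of the other genes enter it too. Mean TPM fell in nearly the same proportion in Gm13119, Pramef25, Gm13128, Pramef17 and Gm13078, as a change in the shared total brings to all genes alike. How far the length of a single gene moved its own level was not tested. With 100-base stretches the share found in other genes was 17.9% for Pramef6, 56.3% for Pramef17, 26.5% for Pramef25, 1.74% for Gm13078, 14.0% for Gm13119, 56.6% for Gm13128, 39.8% for BC080695 and 0% for Pramel7. No paired analysis was possible because there is 1 group. A ratio between the libraries cannot be had without either of them, and each level without 1 library is the value of the other, given in the text. Depth limits Pramel6 and Pramel7 most, with 44 and 34 counts.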

Other observations

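Genes of the oocyte and of maternal stores gave a mixed picture. Of 21 listed genes 10 had at least 10 counts, of which 4 were at least 1.5-fold lower in replicate 2 and 0 higher, with a median log2 ratio of -0.41, against 9.22% lower and 5.52% higher of all genes. Ooep (217 and 229 TPM) and Khdc3 (62.5 and 69.7 TPM), which encode parts of the subcortical maternal complex, were abundant with ratios of 0.08 and 0.16. Tle6, of the same complex, stood at 18.2 and 12.6 TPM with a ratio of -0.53. Obox6, an oocyte-type homeobox gene, had 48 and 13 counts and a ratio of -1.62, Padi6 had 10 and 2 counts and one of -1.85, and Bmp15 had 9 and 3 counts and one of -1.22. Gdf9 had 14 and 7 counts and one of -0.73. The intervals of Padi6, Bmp15 and Gdf9 crossed 0, and that of Obox6 (-2.67 to -0.76) did not. Zp2, Oosp1 and Btg4 had no count.

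Zero-count family genes were also found outside the cluster. Of the 18 family genes of chromosome 5, 9 had no count in either library, and 58.5 to 96.3% of their 50-base stretches recur in other genes. Prame itself, the founding gene on chromosome X, had 0 and 1 counts, with 1.53% of its 50-base stretches found elsewhere.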
